A study of Mus musculus with 4 samples.

Results

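The mouse miRNAs mmu-miR-7a, mmu-miR-7b, mmu-miR-129-3p, mmu-miR-129-5p, mmu-miR-184, mmu-miR-203 and mmu-miR-375, written below without the species prefix, were followed through mouse Sertoli cells after androgen suppression and after testosterone was given back. They are 7 of the 567 mouse miRNAs on the array and were picked by name, as neuroendocrine and epithelial miRNAs that were seen after flutamide and acyline but were dim in the control. Because the difference between androgen-suppressed and control cells chose them, that difference is described here and carries no test. Of the 7, 6 had the pattern for which they were picked. The exception was miR-7b, which was not detected on any of the 4 arrays, so no rise could be measured for it.

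The samples were Sertoli cells, the somatic nurse cells of the seminiferous tubule, purified from male B6129 mice aged 5 to 7 weeks. The study's methods give RNA pools of 5 to 7 mice in general, and its legend for the arrays gives a single pool size within that range. The Sham array (n = 1) held cells from mice with an implanted tube and saline injections. The Flut+Acy arrays (n = 2) held cells from mice given the androgen receptor antagonist flutamide by implant and the gonadotropin-releasing hormone antagonist acyline at 20 mg/kg by injection, and the Flut+Acy+T array (n = 1) held cells from mice given both drugs and testosterone. The sample labels name these arrays only as control, flutamide and testosterone, and do not say whether the pair of Flut+Acy arrays came from separate pools. The study's legend for the arrays speaks of cells pooled from the mice of each group, so the pair may be repeat readings of a single pool. Any test then measures only the spread between that pair, which may be technical.

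A miRNA guides a silencing complex to messenger RNAs that pair with its seed, the bases near its 5′ end, and lowers their stability or translation. miR-375 is known for its high level in pancreatic islets and other endocrine cells, miR-7 for endocrine cells and neurons, and miR-129 for the brain. miR-203 is known from keratinocytes, where it limits the stem-like state by repressing p63, and miR-184 from the lens and cornea.

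Mature sequences of 6 of the 7 members were matched in RefSeq (GRCm38.p6). They are shown 5′ to 3′ with the seed, bases 2 to 8, in capitals, because a shared seed did not go with a shared readout in the miR-7 pair.
miR-7a: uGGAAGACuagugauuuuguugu
miR-7b: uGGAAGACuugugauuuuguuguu
miR-129-3p: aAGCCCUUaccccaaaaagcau
miR-129-5p: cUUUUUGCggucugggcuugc
miR-184: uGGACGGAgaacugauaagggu
miR-203: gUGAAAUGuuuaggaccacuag

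Only miR-7a and miR-7b shared a seed, GGAAGAC, and no other of the 1679 mature mouse miRNAs in the RefSeq table carried it. The seed of each of the other 4 sequences belonged to 1 mature name, so the 5 detected members with a sequence here had no seed in common. Counted from the 5′ end, miR-7a and miR-7b differed by A10U, with miR-7a first, and by the extra last base of miR-7b, which is 24 bases long against 23. Both of the array's probes for each of the 2 miRNAs covered position 10, and whether either set of probes also captured the other miRNA was not tested.

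The array files place the members on 6 chromosomes. In GRCm38.p6, the same mature miR-7a is made from Mir7-1 at chr13:58392841-58392863 on the minus strand and from Mir7-2 at chr7:78888295-78888317 on the plus strand, and miR-7b from chr17:56243017-56243040 on the plus strand. Mir7-1 lies within Hnrnpk, a protein-coding gene for an RNA-binding protein. The 2 arms of Mir129-2, miR-129-3p at chr2:94241376-94241397 and miR-129-5p at chr2:94241419-94241439 on the minus strand, lie within the long noncoding gene Mir670hg, and miR-129-5p is also made from Mir129-1 at chr6:29022624-29022644 on the plus strand. The array cannot tell apart 2 genes that give the same mature miRNA. miR-184 at chr9:89802263-89802284 on the minus strand and miR-203 at chr12:112130927-112130948 on the plus strand lay within no other annotated gene, nor did Mir375, whose hairpin is at chr1:74900658-74900721 on the minus strand. The array files place the target stretch of miR-375 at chr1:74947235-74947250 in the older build mm9.

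The unit of the first values is the total signal, the scanner software's background-subtracted brightness summed over the probes of a miRNA, on a linear scale and before any normalization between arrays. It can fall below 0, and it is given with the error the software attaches to it. "Detected" is the software's own call for a miRNA on an array.

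The endocrine-associated miRNAs are given first. miR-375, which restrains insulin secretion in islets, had a total signal of 3.59 ± 2.50 in Sham cells, 80.5 ± 7.06 and 80.4 ± 7.52 in the Flut+Acy pair, and -146 ± 123 after testosterone replacement. miR-7a gave 3.08 ± 2.48 in Sham cells, 60.4 ± 6.22 and 67.8 ± 7.26 in the Flut+Acy pair, and 36.8 ± 124 after testosterone replacement. Both were detected on the 2 Flut+Acy arrays alone, and for both the Flut+Acy arrays lay closer to each other than either lay to Sham. miR-7b, with the same seed as miR-7a, gave -0.679 ± 2.46 in Sham cells, 0.476 ± 2.63 and 6.83 ± 3.91 in the Flut+Acy pair, and 100.1 ± 124 after testosterone replacement. The software called none of these 4 values of miR-7b detected.

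The brain-associated miR-129-3p and miR-129-5p showed the same order of arrays. The total signal of miR-129-3p was 3.37 ± 2.48 in Sham cells, 92.9 ± 8.92 and 122 ± 11.9 in the Flut+Acy pair, and -72.4 ± 123 after testosterone replacement. That of miR-129-5p was -2.56 ± 2.46 in Sham cells, 23.9 ± 3.30 and 30.2 ± 4.60 in the Flut+Acy pair, and -34.4 ± 123 after testosterone replacement. Each arm was detected on both Flut+Acy arrays and on neither of the other arrays. Both arms came out as separate measurements, since their probes covered different stretches of the hairpin, 43 bases apart at their 3′ ends in the array files and in RefSeq.

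Of the epithelial miRNAs, miR-203 had a total signal of 5.77 ± 2.50 in Sham cells, 154 ± 12.0 and 219.7 ± 17.4 in the Flut+Acy pair, and 82.9 ± 124 after testosterone replacement. Its Flut+Acy arrays differed by more than those of the other members in total signal, and both were far above Sham. The total signal of miR-184 was -0.217 ± 2.46 in Sham cells, 37.0 ± 3.72 and 46.6 ± 5.08 in the Flut+Acy pair, and 3.16 ± 123 after testosterone replacement. Neither was detected on Sham or on Flut+Acy+T.

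Over the 6 detected members, the total signal on a Flut+Acy array was 6.57 to 12.8 times its error. The pattern is therefore carried by the Flut+Acy pair against a single Sham array on which no member was detected, although 4 of the 7 had a Sham total signal above 2.67, the lowest that was detected there.

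**Figure D1:**
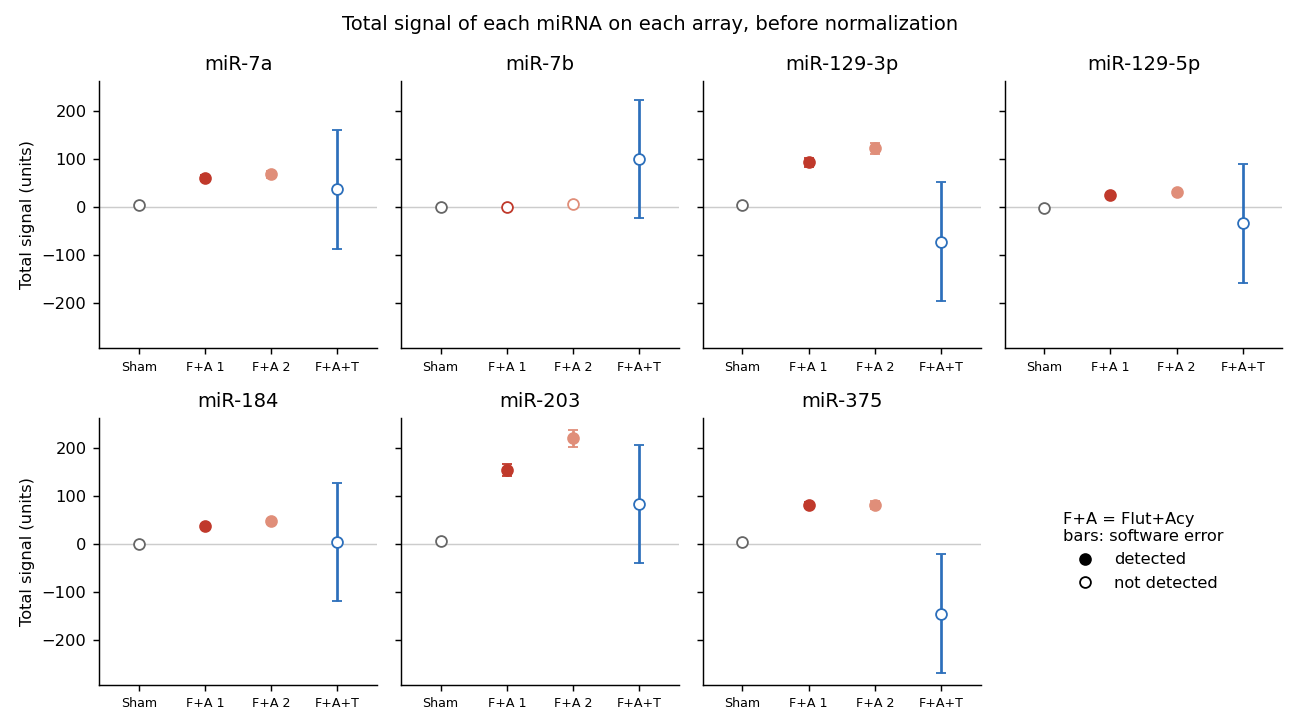
Total signal of each of the 7 miRNAs (vertical axis, units before normalization, the same scale in every panel) by array: Sham, the Flut+Acy pair (F+A 1 and F+A 2) and Flut+Acy+T (F+A+T). Bars are the software's error and filled points are detected; 6 of the 7 miRNAs are filled on both Flut+Acy arrays and nowhere else, and the error on Flut+Acy+T (123 to 124 units) spans most of the Flut+Acy values.

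The arrays as a whole set the terms of these comparisons. Of the 567 mouse miRNAs, the software detected 193 in Sham cells, 275 and 270 in the Flut+Acy pair, and 102 after testosterone replacement. The positive total signals summed to 57940 units for Sham, 139602 and 161460 for the Flut+Acy pair, and 201919 for the testosterone array. Negative totals were left out of these sums. Raw brightness alone was thus higher on Flut+Acy than on Sham. The Flut+Acy+T array stood apart: its median error was 123 units against 2.46 to 3.87 on the others, its lowest detected total signal was 238 units against 0.766 to 2.67, and 535 of its 12493 spots were marked as nonuniform, against 0 to 4. Every result that uses that array rests on it alone. In such bulk RNA, fewer cells of a type and less RNA per cell cannot be told apart.

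Each member was read by 20 spots, 10 for each of 2 nested probes that differ by 1 base in length. On Sham, 0 of the 120 spots of the 6 detected members were well above background by the software's flag, and none was saturated on any array; 1 spot of miR-7b carried the flag on Sham. On Flut+Acy, all 20 spots of miR-184, of miR-203 and of miR-375 were well above background on both arrays. The other 3 had fewer: 10 and 11 of 20 for miR-7a, 13 and 11 for miR-129-3p, and 10 on each array for miR-129-5p. On Flut+Acy+T no spot of any member was.

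A weaker signal on Sham could be seen in some single spots. The 672 negative-control spots of the Sham array had a median of 1.76 units and a 95th percentile of 5.65. The 18-base probe of miR-203 averaged 6.10 ± 1.84 units on Sham (SD over 10 spots), with all 10 above 0 and 6 above that percentile. The 16-base probe of miR-375 averaged 6.15 ± 2.85, with 5 of 10 spots above it. The means of these 2 probes thus lay a little above that percentile, although neither miRNA was called detected on Sham. No spot of their shorter probes passed it. Of the longer probes of miR-7a and miR-129-3p, 3 of 10 and 2 of 9 spots passed that percentile on Sham. For miR-184, miR-129-5p and miR-7b, none did with either probe.

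On Flut+Acy, the same 18-base probe of miR-203 averaged 161 ± 24.5 and 235 ± 14.8 units, and the 16-base probe of miR-375 averaged 93.9 ± 17.9 and 91.5 ± 5.66. Spots of 1 array are repeated readings of 1 RNA sample, so their spread says nothing about differences between animals.

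**Figure D2:**
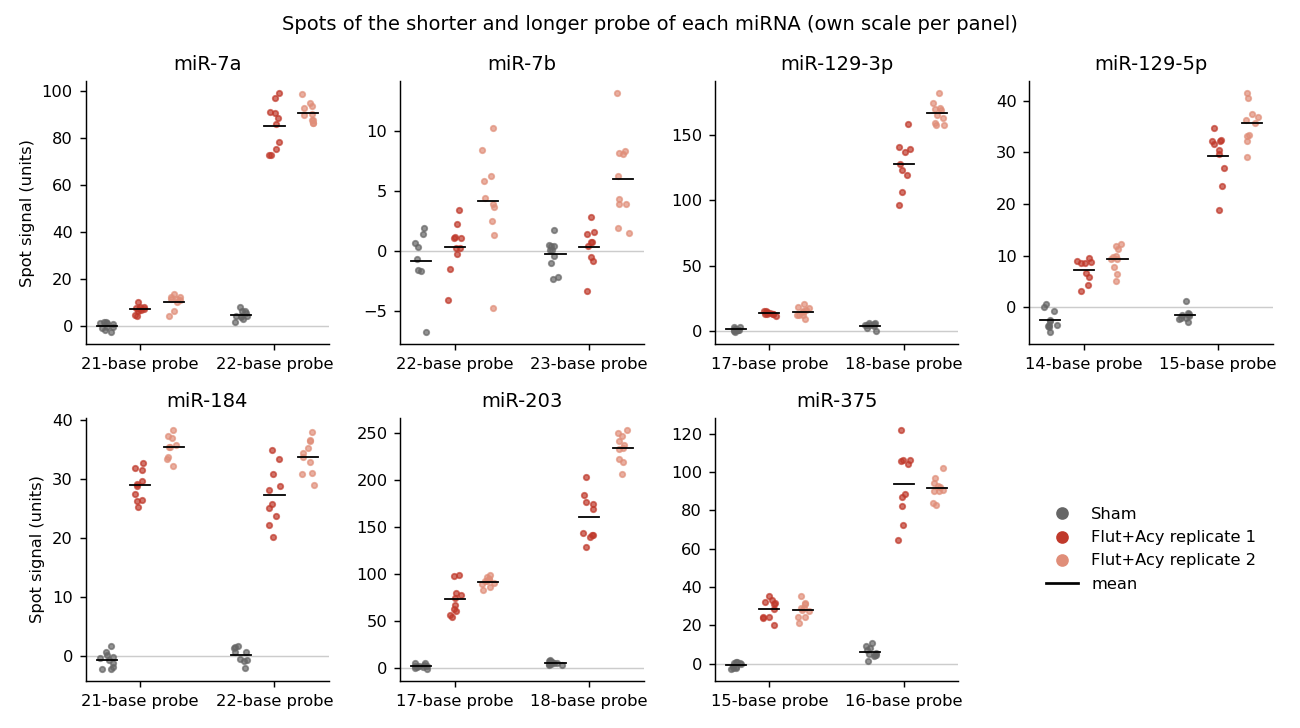
Background-subtracted signal of single spots (vertical axis, units, own scale in each panel) for the shorter and the longer probe of each miRNA in grey for Sham, dark red for Flut+Acy replicate 1 and light red for Flut+Acy replicate 2, with outlier spots left out and the mean as a line. For 6 miRNAs the Flut+Acy spots of the longer probe lie apart from the Sham spots; for miR-7b the spots of the 3 arrays overlap.

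To set Flut+Acy against Sham at like overall brightness, quantile normalization was applied to the total signals of the 4 arrays, which gives every array the same distribution of values. In this unit, miR-203 was 42.9 on Sham against 186 and 220.0 on Flut+Acy, and miR-129-3p was 31.0 against 123 and 136. miR-375 was 31.4 on Sham against 113 and 101, and miR-7a was 28.1 against 88.4 and 85.2. Each of these Flut+Acy values was above the Sham value. miR-129-5p was -40.4 on Sham against 44.9 and 44.0, and miR-184 was -9.21 against 62.6 on both arrays.

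Since no member was detected on Sham, the mean Flut+Acy signal was divided by a Sham bound. It is the higher of the member's own Sham value and 23.6 units, the lowest normalized signal detected on Sham. An undetected signal can lie above 23.6 units, as that of miR-203 did (42.9 on Sham), so the ratio is no minimum fold. The ratio of Flut+Acy to the Sham bound was 4.72 for miR-203, 4.18 for miR-129-3p and 3.42 for miR-375. It was 3.09 for miR-7a, 2.65 for miR-184 and 1.88 for miR-129-5p. No ratio was given for miR-7b. The size depends on the processing. In the authors' own normalized values, with lower values raised to a floor of 5.46 units, miR-7a differed from Sham by 0.59 on the log2 scale. Its Sham and Flut+Acy+T values both lay at that floor (a difference of 0), so the 0.59 was set by the floor. The Sham, Flut+Acy 1 and Flut+Acy 2 arrays were also normalized without the Flut+Acy+T array, a choice made after seeing the data. The ratios were then 7.02, 5.98, 4.43, 3.94, 2.84 and 1.88 in the same order. The ratios of 5 members, all but miR-129-5p, were thus lower when the Flut+Acy+T array took part in the normalization.

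On the log2 scale with a floor of 5.46 units, the differences were 1.63 for miR-7a, 1.77 for miR-375, 2.07 for miR-129-3p and 2.24 for miR-203. Those of miR-129-5p (3.02) and miR-184 (3.52) were set by the floor, where their Sham values lay. The 2 Flut+Acy arrays differed by -0.16 to 0.24 on this scale, less than any of these differences. All 6 were past 2-fold in this way, as were 64 of the 283 miRNAs that Sham or Flut+Acy arrays detected (22.6%), and the median of all 283 was -0.18. These are the values that chose the members, so the share is no test of them. Normalized without the Flut+Acy+T array, 25.4% of the 283 were past 2-fold.

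The same detection pattern was found in other miRNAs. Detection on both Flut+Acy arrays and not on Sham was seen for 74 of the 567 mouse miRNAs (13.1%), and 67 of these (11.8% of all) were also not detected on Flut+Acy+T. The 6 members are among the 74, and so are 68 other miRNAs. Of the 74, 23 passed the Sham bound by 2-fold, 5 members and 18 others. The pattern is thus not particular to neuroendocrine or epithelial miRNAs.

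**Figure D3:**
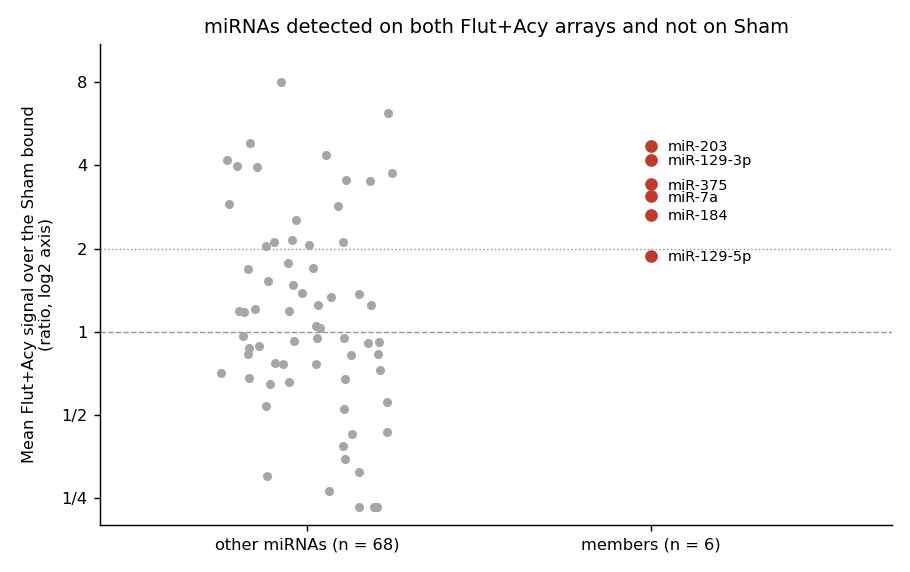
Mean normalized Flut+Acy signal divided by the bound on Sham (vertical axis, ratio on a log2 axis) for the 74 miRNAs detected on both Flut+Acy arrays and not on Sham, 68 others in grey with random horizontal spread and 6 members in red. The lines are at ratios of 1 and 2; the members lie between 1.88 and 4.72, inside the range of the other miRNAs.

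The profile of the 6 detected members over the 4 arrays was also set beside those of 257 other miRNAs detected on both Flut+Acy arrays. Likeness was the distance between log2 values after centring each miRNA over the arrays. The nearest to the mean profile of the members were miR-871 and miR-17* (both at a distance of 0.25) and miR-743b-3p (0.29). miR-871 had total signals of 8.42 in Sham cells, 249 and 311 in the Flut+Acy pair, and 63.4 after testosterone replacement. In the same order, miR-743b-3p had 21.7, 808, 849 and 179.6. miR-17*, the passenger strand of a proliferation-linked miRNA, had 1.84, 37.6, 42.5 and -116. miR-871 and miR-743b-3p were detected on Sham, unlike the members. The members themselves lay 0.61 to 1.09 from their own mean profile, farther than these 3.

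Testosterone replacement was the next comparison, and the Flut+Acy arrays that chose the members enter it. No member was detected on Flut+Acy+T. Of the 263 miRNAs detected on both Flut+Acy arrays, 180 were not detected there either (68.4%). Every member's total signal on Flut+Acy, at most 219.7 units, lay under 238 units, the lowest total signal detected on Flut+Acy+T before normalization.

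In normalized units, the 6 members were 14.7 (miR-7a), -17.8 (miR-129-3p), -6.90 (miR-129-5p), 4.24 (miR-184), 30.4 (miR-203) and -38.3 (miR-375) on Flut+Acy+T, each under both of its Flut+Acy values. limma, fitted over 298 miRNAs with Benjamini-Hochberg adjustment, called all 6 lower than in Flut+Acy, and it called 160 of the 298 (53.7%) lower. All 6 were lower by 2-fold, as were 151 of 297 miRNAs (50.8%). The methods' analysis of variance called 0 of the 6 after adjustment (4 at an unadjusted p under 0.05), and with normexp background correction 0 were lower by 2-fold. The members were picked for their Flut+Acy signal and were set against a single array on which none was detected, so these calls are a description and support no fall. After normalization, the lowest signal detected on Flut+Acy+T was 103.5 units, and the mean Flut+Acy level of miR-203 was 1.96 times that value. For miR-129-3p it was 1.25 times and for miR-375 1.03 times. An undetected miRNA can lie above the lowest detected signal. Before normalization, miR-429 was undetected on Flut+Acy+T at 376 units, where the lowest detected total signal was 238. The ratios therefore give no minimum fall. For miR-7a, miR-129-5p and miR-184 the Flut+Acy level was under 103.5 units. No member's Flut+Acy level was 2-fold above the lowest detected signal, and before normalization none was above it at all.

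Between Flut+Acy+T and Sham, no member was detected on either side, so no fold was given for any of them. Whether testosterone returned the members to their Sham level was not measurable on these arrays.

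Other products of the same hairpins and regions were read for comparison. The passenger strand miR-7a* gave total signals of -1.25 in Sham cells, 5.10 and 7.72 in the Flut+Acy pair, and -24.5 after testosterone replacement. In the same order, miR-203* gave -1.74, 0.497, 0.809 and -99.6. Neither passenger strand was detected on any array. miR-670, which the files place within 100 kb of the miR-129-2 arms, gave -2.65, -0.163, 0.909 and -126 and was not detected either. miR-7b, miR-184 and miR-375 had no other miRNA of the array within 100 kb.

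Lists of tissue-associated miRNAs, without the members, showed how far neighbours in function moved. Among all 283 miRNAs detected on Sham or Flut+Acy, 64 were 2-fold higher in Flut+Acy (22.6%) and 47 were 2-fold lower (16.6%). Of 12 other neuronal and neuroendocrine miRNAs, 6 were detected on both Flut+Acy arrays, and of these 2 exceeded their Sham level by 2-fold or more and 2 lay under it by as much, with a median log2 difference of 0.41 against -0.18 over all 283. miR-96, of the sensory-cell cluster, was at 2.36 (total signals of 0.730 in Sham cells and 18.1 and 16.3 in the Flut+Acy pair) and miR-138, a regulator of dendritic spines, at 2.06. The neuronal miRNA miR-124 was at -1.50 and miR-218 at -1.29. Before normalization both were higher in the Flut+Acy pair, with total signals of 202 in Sham cells against 218 and 258 for miR-124, and 39.9 against 61.6 and 67.9 for miR-218. miR-9, miR-9*, miR-137, miR-153, miR-182 and miR-183, also neural or sensory, were not detected on Flut+Acy. miR-96 and miR-138 were below detection on Sham, so their differences depend on the floor. miR-128 was at 0.57 and miR-219, also below detection on Sham, at 0.26. After normalization, 4 of the 6 were thus above Sham and 2 were below it.

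Of 6 other epithelial miRNAs, 3 were detected on both Flut+Acy arrays. All 3 were past 2-fold, against 22.6% of all 283 miRNAs. They were the miR-200 family members miR-200a (1.20 on the log2 scale), miR-200b (1.02) and miR-429 (1.08), which hold cells in the epithelial state by repressing Zeb1 and Zeb2. Their differences were smaller in value than the 2.24 of miR-203, a contrast that was not tested, and miR-429 was below detection on Sham. miR-141, miR-200c and miR-205, the last a miRNA of stratified epithelium, were not detected on Flut+Acy.

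Lists for other testis cells were read in the same way. Of 14 miRNAs listed as male germ cell miRNAs, 13 were detected on both Flut+Acy arrays and all 13 exceeded their Sham level by 2-fold or more, with a median log2 difference of 2.26. Their positive total signals, with negative ones left out, summed to 639.9 units in Sham cells, 12429.5 and 13210.4 in the Flut+Acy pair, and 5026 after testosterone replacement. miR-449b was not detected on any array. Most of this list was named by the study as higher in Flut+Acy on these same arrays, so its count is not independent evidence of its direction, and the study treats these miRNAs as Sertoli cell miRNAs. Of the nearest profiles above, miR-871 and miR-743b-3p belong to this list. The part of germ cells in the members' difference was not tested.

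By contrast, none of 8 detected blood and endothelial miRNAs was past 2-fold higher and 2 were past 2-fold lower, with a median of -0.72. The positive total signals of this list, with negative ones left out, summed to 891 units in Sham cells, 2391 and 2607 in the Flut+Acy pair, and 4924 after testosterone replacement. Of 5 detected muscle and peritubular miRNAs, none was higher and 4 were lower by 2-fold, with a median of -1.22, and their sum was 1785, 2581, 3094 and 4571 in that order. The summed signals of both lists were thus higher in the Flut+Acy pair before normalization, and their negative medians hold after it. The gonadal miRNA miR-202-3p, a marker of Sertoli cells, was detected on Sham and Flut+Acy (103, 312 and 339 units) and not on Flut+Acy+T (8.25 units), with a log2 difference of -0.37. Its other arm miR-202-5p was not detected on Sham (0.509 units) but was on Flut+Acy (21.5 and 27.0 units), as the members were.

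The size of the members' difference varied with the processing, while its direction did not. Over 60 values, 6 members under 10 other settings, the Flut+Acy level was above Sham in all 60, by 0.41 to 5.97 on the log2 scale. The members were picked for this direction and every setting used the same arrays, so the count is a description and no support for a rise. The smallest came with normexp background correction, under which no member reached 2-fold, and the largest with a floor of 1 unit for miR-184. Without normalization between arrays the members differed by 3.83 to 4.99, where the median of all miRNAs was itself shifted by 1.75.

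**Figure D4:**
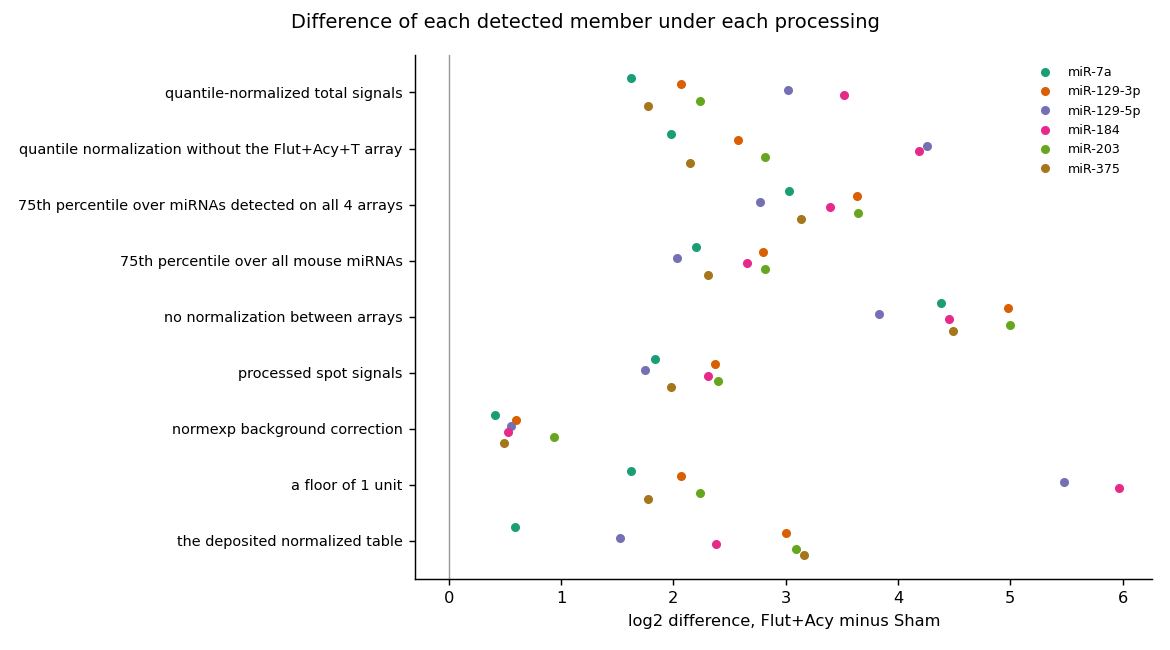
Difference between Flut+Acy and Sham (horizontal axis, log2) for the 6 detected members under each processing (vertical axis), one colour per miRNA. All points lie right of 0, from 0.41 to 5.97, the direction for which the members were picked. Sham values are below detection, so the size depends on the floor and the background step.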

How the data were processed

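RNA of 4 Sertoli cell samples was hybridised to 1-colour Agilent miRNA arrays on 1 slide. The study's text names a gene expression array, whereas the files are of a miRNA array. The authors deposited the output of Feature Extraction 9.5.3.1, linear intensity values per spot and per miRNA, and a table of intensity values that they had quantile-normalized in MATLAB; how spots were combined for that table is not given in the sources used here. Quantile normalization of total signals over 567 mouse miRNAs was followed by a floor of 5.46 units and log2. The floor is the median, among arrays, of the lowest normalized signal called detected. All 3 groups entered a single fit with limma 3.58.1 (R 4.3.3), which took the 298 miRNAs that any array detected, left 1 residual degree of freedom and was tested on simulated data in which all arrays varied alike. Differences past 2-fold were counted without a test where the members were chosen on them. The number of arrays limits the precision. Named are the members, the other arms of their hairpins, miRNAs within 100 kb, the 3 nearest profiles, and list miRNAs on which a sentence turns. The members and lists were chosen with earlier results of these data known. The 12 alternatives were other scalings, background steps, floors, filters and tests, the deposited table and leaving out each Flut+Acy array; 1 was added after seeing the data. Target stretches are in mm9, as the files give them, and mature sequences in GRCm38.p6.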

Additional observations from a re-analysis of the deposited data

How the results depend on the processing

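With normexp background correction, 0 of the 6 detected members exceeded Sham by 2-fold in Flut+Acy cells, and 0 lay 2-fold under their Flut+Acy level after testosterone replacement. Under the methods' single-factor analysis of variance, 0 members were lower in Flut+Acy+T after adjustment and 4 at an unadjusted p under 0.05, with no p for miR-184, whose Flut+Acy values were equal. The other alternatives left 5 or 6 members in each count: miR-7a fell short of 2-fold in the deposited table in both comparisons (0.59 and -0.59 on the log2 scale) and missed the limma threshold there (adjusted p = 0.141). It also fell short of 2-fold lower without normalization (-0.80), where miR-203 missed the limma threshold (adjusted p = 0.0574), as it did with no filter on detection (adjusted p = 0.0857). In the deposited table, both miR-7a differences were set by the floor of 5.46 units, where its Sham and Flut+Acy+T values lay. Leaving out either Flut+Acy array gave 6 to 6 members in both 2-fold counts. limma could not then be fitted, as no residual degrees of freedom were left. Flut+Acy+T lay below Flut+Acy in all 54 member values of the alternatives, by -7.02 to -0.31 on the log2 scale. Flut+Acy+T was below detection in each. All 54 share the Flut+Acy arrays that chose the members and the single Flut+Acy+T array, so they support no fall. Among all 283 miRNAs, 22.6% exceeded Sham by 2-fold and 16.6% lay 2-fold under it in Flut+Acy cells, against 35.3% and 4.59% with the 75th percentile of miRNAs detected on all arrays, 23.7% and 25.8% with that of all miRNAs, 74.9% and 0.353% without normalization, and 7.77% and 1.77% with normexp; the median of all miRNAs moved between -0.34 and 1.75. No paired analysis was possible because Sham and Flut+Acy+T have 1 array each. Signal over background limits every comparison with Sham and Flut+Acy+T, on which no member was detected.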
